A study of Homo sapiens with 6 samples.

Results

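Neurofilaments and their relatives are the intermediate filaments of nerve cells, rope-like polymers that give axons their calibre and resist stretching. The 8 genes described here are NEFL, NEFM and NEFH, which encode the light, medium and heavy neurofilament subunits, INA (alpha-internexin), PRPH (peripherin), VIM (vimentin), NES (nestin) and SYNM (synemin). They were chosen by gene name, and all 8 were found among the 19937 gene rows of the deposited table, 1 row each. All 8 passed the filter on low counts, as did 12701 genes in all.

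RNA was sequenced from the established neuroblastoma line SK-N-BE(2), which is human, in 3 libraries titled sgcon (the control guide group) and 3 titled sgGPR91. GPR91 is the succinate receptor, encoded by SUCNR1, and its knockout in this line is the subject of the series. Both groups had been exposed to drug for 48 hours. It is given as doxorubicin at 100 nmol/L in the treatment tag and as DOX at 1.5 µg/ml in the growth protocol. The entries use different units and were not reconciled, so the dose is left uncertain here. Untreated cells are not analysed here. The groups follow the titles, but the genotype tags state the reverse: knockout for sgcon and control for sgGPR91. If the tags are right, each direction below turns around. The sources used here do not state whether the targeted cells were a pool or a clone, or whether replicates were separate cultures, so p-values reflect only a library-to-library spread that may be technical.

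Library totals ran from 7070189 to 10252425 counts. SUCNR1 had 1, 0 and 2 reads in the sgcon libraries and 1, 0 and 0 in the sgGPR91 libraries. It was not tested, and its level does not show which label is right. Genes of the mitochondrial chromosome took 2.15 to 2.45% of counts in sgcon and 3.36 to 3.91% in sgGPR91. The adrenergic neuroblast genes that define the line's lineage were present, with PHOX2A at 620.9 ± 78.3 CPM (counts relative to library size, scaled by TMM) in sgcon and 642.1 ± 12.2 in sgGPR91 (SD, n = 3).

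As background, intermediate filament proteins share a central coiled rod through which they pair and polymerise, and they differ in their head and tail domains. NEFL is the core neurofilament subunit, and NEFM and NEFH add long tails that are heavily phosphorylated in mature axons. Alpha-internexin and peripherin co-assemble with them, the first mainly in central neurons and the second mainly in peripheral and neural crest derived neurons such as the sympathetic lineage from which neuroblastoma arises. Vimentin and nestin are typical of immature neural and mesenchymal cells, and synemin and nestin join other filament proteins rather than forming filaments alone.

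NEFL and NEFM were more than 4-fold higher in the sgGPR91 libraries, whereas the other neurofilament subunits NEFH and INA were about 1.3-fold lower. PRPH, NES and SYNM were higher by 1.22-fold to 1.40-fold, and VIM did not pass the test. In all, 5 of the 8 genes were called higher and 2 lower at an edgeR adjusted p under 0.05. The background in this comparison was high, since 41.1% of the genes tested were called, 20.2% higher and 21.0% lower. The median log2 fold change was 0.34 over the 8 genes and -0.01 over all genes tested. In bulk libraries, a change in the number of cells making a transcript and a change in the transcript per cell cannot be told apart.

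**Figure D1:**
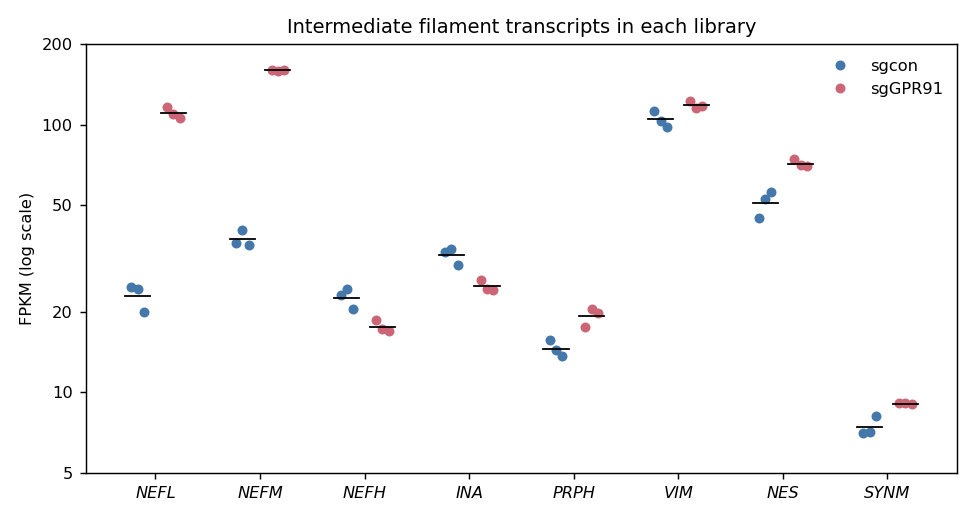
FPKM (fragments per kilobase of gene length per scaled library total, log scale) of the 8 genes in each of the 3 sgcon (blue) and 3 sgGPR91 (red) libraries, with a black line at each group mean. NEFL and NEFM stand far apart between the groups, at means of 23.0 against 110.5 and 37.3 against 159.7 FPKM, while NEFH and INA lie lower in sgGPR91.

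NEFL (ENSG00000277586, chromosome 8, 24950955 to 24956721, minus strand) encodes the subunit on which neurofilaments are built. In sgcon replicates 1, 2 and 3 its level was 24.7, 24.2 and 19.9 FPKM. The sgGPR91 replicates had 116.6, 109.5 and 105.5 FPKM. All the sgGPR91 values lay far above all the sgcon values. This was a 4.76-fold difference, or 2.25 ± 0.09 log2 (SE), at an edgeR adjusted p of 3.71e-11.

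NEFM (ENSG00000104722, chromosome 8, 24913758 to 24919098, plus strand), the medium subunit, had 36.2, 40.3 and 35.4 FPKM in sgcon. In sgGPR91 it had 160.1, 159.0 and 160.0 FPKM (SD 0.588). The groups did not overlap, and the log2 fold change was 2.09 ± 0.08 (SE), or 4.25-fold (edgeR adjusted p = 1.15e-11). Together, NEFL and NEFM had 6028 reads in the sgcon libraries and 25928 in the sgGPR91 libraries. Among the 12701 genes tested, NEFL ranked 120 and NEFM 144 from the highest log2 fold change. Genes called at least 4-fold higher were 1.20% of those tested.

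NEFH (ENSG00000100285, chromosome 22, 29480218 to 29491390, plus strand), the heavy subunit, which appears late in the maturation of axons, went the other way. It stood at 23.0, 24.3 and 20.4 FPKM in sgcon and at 18.7, 17.3 and 16.9 FPKM in sgGPR91. Every sgGPR91 library was below every sgcon library, though the highest of the former and the lowest of the latter were close. The log2 fold change was -0.37 ± 0.09 (SE), a 1.29-fold fall with an edgeR adjusted p of 0.00281.

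INA (ENSG00000148798, chromosome 10, 103277138 to 103290346, plus strand), which encodes alpha-internexin, an early neuronal subunit, fell by a like amount. Its values were 33.4, 34.2 and 29.8 FPKM in sgcon and 26.3, 24.2 and 24.1 FPKM in sgGPR91, again without overlap. This was a 1.32-fold fall, with a log2 fold change of -0.40 ± 0.08 (SE; edgeR adjusted p = 0.00104). For both NEFH and INA, the lowest sgcon value was in replicate 3, which was also the library with the fewest counts. Without that library the calls held, as they did in the 12 other alternative settings tried.

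PRPH (ENSG00000135406, chromosome 12, 49293252 to 49298686, plus strand) encodes peripherin, the type III filament protein of peripheral neurons. It had 15.6, 14.3 and 13.7 FPKM in sgcon and 17.5, 20.5 and 19.8 FPKM in sgGPR91. The groups did not overlap, and sgGPR91 replicate 1 was the nearest to sgcon. The log2 fold change was 0.39 ± 0.09 (SE), or 1.31-fold (edgeR adjusted p = 0.00249).

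VIM (ENSG00000026025, chromosome 10, 17228241 to 17237593, plus strand), the other type III gene here, was abundant in both groups, with 112.5, 103.4 and 98.2 FPKM in sgcon and 122.1, 114.9 and 117.8 FPKM in sgGPR91. On the FPKM scale the groups did not overlap, but in TMM-scaled CPM they did, since sgcon replicate 1 had 592.6 CPM and sgGPR91 replicate 2 had 589.97. The log2 fold change of 0.17 ± 0.08 (SE), or 1.12-fold, did not pass (edgeR adjusted p = 0.0983). Without sgcon replicate 1 it was 0.23 and passed (edgeR adjusted p = 0.0248), so that library decides the call. Over all 13 alternatives the adjusted p ran from 0.0248 to 0.269.

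NES (ENSG00000132688, chromosome 1, 156668763 to 156677407, minus strand) encodes nestin, a filament protein of neural progenitors. It rose from 44.7, 52.5 and 55.8 FPKM in sgcon to 74.3, 70.5 and 69.7 FPKM in sgGPR91. The sgcon libraries were spread more widely than the sgGPR91 libraries, but the groups were apart. It was 1.40-fold higher in sgGPR91, or 0.48 ± 0.08 log2 (SE), at an edgeR adjusted p of 0.00013.

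SYNM (ENSG00000182253, chromosome 15, 99098217 to 99135593, plus strand), whose product links filaments to anchoring proteins, was the least abundant of the 8 per length. Its values were 7.04, 7.10 and 8.15 FPKM in sgcon and 9.09, 9.13 and 9.02 FPKM in sgGPR91. The 3 sgGPR91 libraries were nearly equal, and sgcon replicate 3 came closest to them. The log2 fold change was 0.28 ± 0.08 (SE), or 1.22-fold (edgeR adjusted p = 0.00812).

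**Figure D2:**
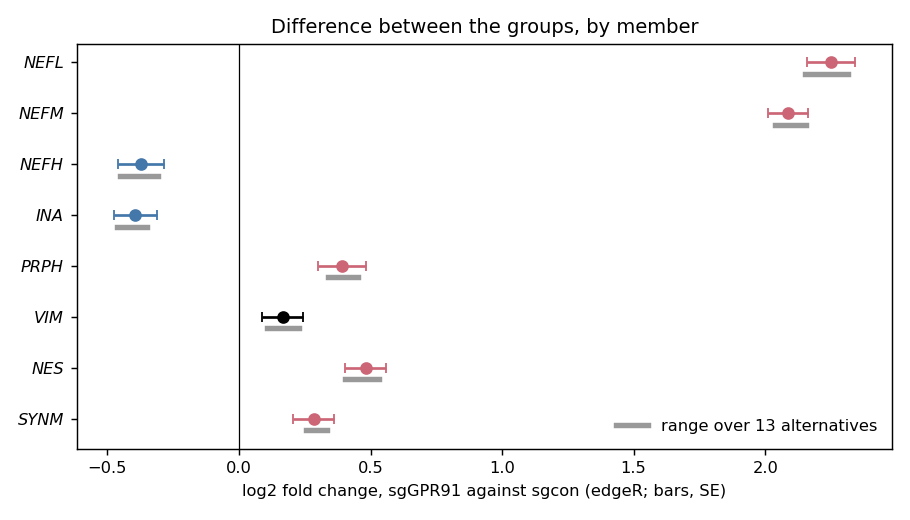
Log2 fold change of sgGPR91 against sgcon for each gene (edgeR; bars, SE), red where called higher, blue where called lower and black where not called, with a grey bar for the range over 13 alternative settings. NEFL (2.25) and NEFM (2.09) stand apart from the other genes, which lie between -0.40 and 0.48.

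In TMM-scaled CPM, 7 of the 8 genes had groups that did not overlap, which also held for 50.9% of all genes tested. The gene models of NEFL, NEFM, NEFH, PRPH, VIM and SYNM overlap antisense or other genes in GENCODE version 29, and the sources used here do not say whether counting used strand. Reads of such a partner cannot be told apart from those of the gene. INA and NES overlap no other gene there. NEFL, NEFM and NEFH each also have a named pseudogene in that annotation (NEFLP1, NEFMP1 and NEFHP1), and how reads shared with a pseudogene were counted was not tested.

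The order of abundance changed between the groups. Per length, VIM was highest in sgcon (104.7 ± 7.26 FPKM; SD, n = 3), followed by NES (51.0 ± 5.67), NEFM (37.3 ± 2.62), INA (32.5 ± 2.35), NEFL (23.0 ± 2.65), NEFH (22.6 ± 1.98), PRPH (14.6 ± 0.979) and SYNM (7.43 ± 0.624). In that order NEFL and NEFH did not differ beyond their spread, while each other pair of neighbours had ranges that did not overlap. In sgGPR91 the order was NEFM (159.7 ± 0.588 FPKM), VIM (118.3 ± 3.65), NEFL (110.5 ± 5.63), NES (71.5 ± 2.43), INA (24.9 ± 1.25), PRPH (19.3 ± 1.58), NEFH (17.6 ± 0.946) and SYNM (9.08 ± 0.0573). There the ranges overlapped for VIM and NEFL and for PRPH and NEFH. Per length, NEFM thus went from the third place to the first, and NEFL from the fifth to the third. These places rest on the listed gene lengths, 5176 bases for VIM and 3635 for NEFM, as do the shares and ratios below. Before division by length, VIM stayed above NEFM in every sgGPR91 library, at 5611, 4875 and 5139 reads against 5167, 4740 and 4902. Whether NEFM transcripts came to outnumber those of VIM was not tested.

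Summed over the 8 genes, the sgcon libraries had 293.0 ± 10.2 FPKM and the sgGPR91 libraries 530.9 ± 12.1 FPKM (SD, n = 3). NEFL and NEFM supplied 20.5% ± 0.905 of that sum in sgcon and 50.9% ± 0.204 in sgGPR91. The share of VIM was 35.7% ± 1.86 and then 22.3% ± 0.348. NEFH went from 7.70% ± 0.419 to 3.31% ± 0.102 and INA from 11.1% ± 0.422 to 4.69% ± 0.127. Since shares add to the whole, NES, whose level rose, still went from 17.5% ± 2.39 to 13.5% ± 0.152 of the sum. PRPH and SYNM, which also rose in level, likewise had smaller shares, at 4.96% ± 0.254 against 3.63% ± 0.372 and 2.54% ± 0.306 against 1.71% ± 0.0376.

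Ratios within a library show how the subunits stood to each other. The FPKM ratio of NEFM to NEFL was 1.46, 1.66 and 1.78 in sgcon and 1.37, 1.45 and 1.52 in sgGPR91. These ranges overlapped, and a two-sided exact permutation test of the log2 ratio gave p = 0.2 (0.24 after Benjamini-Hochberg adjustment over 6 ratios). The ratio of NEFH to NEFL was 0.929, 1.00 and 1.03 in sgcon and 0.160, 0.158 and 0.160 in sgGPR91. INA to NEFL went from 1.35, 1.41 and 1.50 to 0.226, 0.221 and 0.229. Thus NEFH and NEFL were near parity per listed gene length in sgcon, and both ratios were far lower in every sgGPR91 library. Both have NEFL as the denominator, so its 4.76-fold difference enters each and they are not separate results.

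PRPH to NEFL went from 0.631, 0.592 and 0.687 to 0.150, 0.187 and 0.188, also without overlap. PRPH itself was 1.31-fold higher, so this lower ratio reflects the larger difference of NEFL. VIM to NES was 2.52, 1.97 and 1.76 in sgcon and 1.64, 1.63 and 1.69 in sgGPR91, with sgcon replicate 3 close to the sgGPR91 libraries. For these and for NEFH to NEFL and INA to NEFL the exact permutation p was 0.1 (0.15 adjusted over 6 ratios), and 0.1 is the smallest that 3 libraries against 3 allow. SYNM to VIM overlapped between groups, at 0.0714 ± 0.0105 and 0.0768 ± 0.00255 (SD, n = 3; exact permutation p = 0.5, adjusted 0.5).

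NEFM and NEFL lie next to each other on chromosome 8, on opposite strands and 31856 bases apart in the deposited coordinates. Of the other 9 genes among the nearest 5 tested and reported here on each side of NEFL, 2 were called higher, 4 lower and 3 were not called. Their median log2 fold change was -0.18. Over all genes tested, 20.2% were called higher and 21.0% lower. The 10 nearest genes, NEFM among them, spanned 2971 kb. The gene nearest to the pair on the NEFL side, DOCK5, which encodes an activator of small GTPases, was higher by 0.38 ± 0.09 log2 (SE). STC1, the nearest on the NEFM side and the gene of the secreted protein stanniocalcin, was lower, at -0.47 ± 0.17, a call that ended in 9 of 13 alternatives, among them DESeq2 (adjusted p = 0.243) and the removal of any library except sgcon replicate 3.

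**Figure D3:**
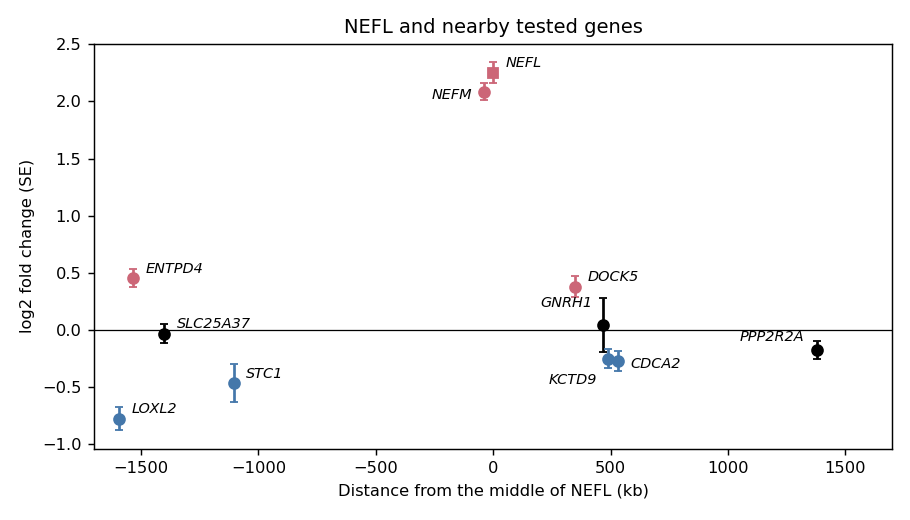
Log2 fold change (bars, SE) of NEFL (square), NEFM and the other genes among the nearest 5 tested and reported here on each side, against the distance from the middle of NEFL in kb. Red genes were called higher, blue lower and black not called. NEFM (2.09) and NEFL (2.25) stand together, while the median of the other 9 is -0.18.

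The other 6 genes lie on chromosomes 1, 10, 12, 15 and 22. The 10 nearest tested genes had medians of -0.18 around NEFH, close to 0 around INA, -0.07 around PRPH, -0.07 around VIM, 0.01 around NES and 0.05 around SYNM. Calls among those neighbours were in both directions in each of these places, beside 20.2% called higher and 21.0% called lower over all genes tested. Past 2-fold were CABP7 on the NEFH list, ITGA8 on that of VIM, and ARRDC4 and ADAMTS17 on that of SYNM, at -1.47, -3.60, 1.35 and -1.45 log2. The 10 genes spanned 516.2 kb around NEFH, 3053.6 kb around VIM and 7192.6 kb around SYNM, so some lay far from the member. The genes around these 6 members thus had no common direction.

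Promoter windows from RefSeq (GRCh38.p14, 250 bases before to 50 after the listed start) matched 5 of the 8 genes by symbol, namely INA, PRPH, VIM, NES and SYNM. Those of INA, a subunit that fell, and of NES and PRPH, which rose, are shown because they let the start regions of genes with opposite changes be compared. Capitals mark matches on either strand to the GC box GGGCGG or the TATA box TATAAA.
INA, chromosome 10, 103276888 to 103277187, plus strand: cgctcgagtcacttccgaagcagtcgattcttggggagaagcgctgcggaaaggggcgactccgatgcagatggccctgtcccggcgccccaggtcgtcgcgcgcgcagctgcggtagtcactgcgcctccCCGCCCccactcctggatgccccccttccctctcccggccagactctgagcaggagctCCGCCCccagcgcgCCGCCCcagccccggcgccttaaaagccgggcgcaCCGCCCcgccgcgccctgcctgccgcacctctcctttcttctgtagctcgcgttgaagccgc
NES, chromosome 1, 156677358 to 156677657, minus strand: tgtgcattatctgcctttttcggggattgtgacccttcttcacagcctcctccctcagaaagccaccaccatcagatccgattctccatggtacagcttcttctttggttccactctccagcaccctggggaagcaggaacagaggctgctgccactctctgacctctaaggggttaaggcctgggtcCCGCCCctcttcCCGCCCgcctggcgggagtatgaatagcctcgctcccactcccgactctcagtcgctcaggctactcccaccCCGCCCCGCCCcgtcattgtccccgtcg
PRPH, chromosome 12, 49294897 to 49295196, plus strand: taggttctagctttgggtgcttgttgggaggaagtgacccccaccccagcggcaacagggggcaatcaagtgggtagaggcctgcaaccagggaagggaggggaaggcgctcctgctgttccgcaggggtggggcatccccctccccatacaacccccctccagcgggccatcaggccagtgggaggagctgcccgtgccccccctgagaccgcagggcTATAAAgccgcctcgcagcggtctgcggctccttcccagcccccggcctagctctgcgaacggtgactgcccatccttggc

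The PRPH window held the only TATAAA among the 5, beginning at position -31 (the base before the start is -1). This PRPH window lies inside the deposited gene row, which begins at 49293252. The SYNM window, 99104830 to 99105129, also lies inside its row, which begins at 99098217. The windows of INA, VIM and NES span the starts of their rows. TATAAA occurs in 11.5% of the 35116 promoter windows of that length. GGGCGG occurs in 45.0% of them and was found in INA, VIM, NES and SYNM, with 4 matches each in INA, NES and SYNM, of which those after the NES start overlap by a base. CCAAT (34.6% of all windows) was found in SYNM alone of the 5. No match in these windows was found to TGACGTCA (1.8% of all windows), the AP-1 motif TGANTCA (7.7%) or the E-box CACGTG (7.3%). The GC content was 71.3% for INA, 60.3% for NES and 67.0% for PRPH, against a median of 58.7% over all windows. In the windows of INA, which fell, and NES, which rose, GC boxes were present and TATAAA was absent. Whether any of these motifs bears on the changes was not tested, and NEFL, NEFM and NEFH had no window.

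The genes whose profile over the 6 libraries was most like each member were found by the root mean square distance of centred log2 CPM, among 10994 genes reported here with a mean of at least 5 CPM. These distances are descriptions, and with 2 groups of 3 libraries they mostly reflect the size of the group difference. For NEFL the nearest were ZC3H12C, NEFM and ADAM19, at 0.117, 0.126 and 0.126 log2. For NEFM they were SPOCK2, ADAM19 and CHODL, at 0.0784, 0.0801 and 0.0852. NEFH and INA were each among the 3 nearest to the other, at 0.0221, and both had SMS, the spermine synthase gene, as the nearest, at 0.0169 and 0.0156. The others were H2AZ1 for NEFH and KHDRBS1 for INA.

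The profiles nearest to PRPH were those of RNF11, IBTK and TMEM64, at 0.0393 to 0.0418. Those nearest to VIM were TSPAN3, SELENOM and POC1B (0.0137 to 0.0239), to NES ARNT2, FLNA and MCUR1 (0.0247 to 0.0385), and to SYNM ARHGEF2, C1orf198 and AKAP11 (0.026 to 0.0295). FLNA encodes filamin A, which cross-links actin.

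The rest of the intermediate filament family was mostly at or near 0 reads. Of 65 other family genes, 40 had no read in any library and 6 were tested. Among 55 keratin genes, the filaments of epithelia, 1 was tested, KRT10, at 4.69 ± 0.567 and 4.80 ± 1.02 CPM, and the other 54 had means under 1 CPM in both groups. The keratin genes of simple epithelia, KRT8 and KRT18, had 1 and 0 reads in all sgcon libraries and 8 and 1 in the sgGPR91 libraries. DES (desmin of muscle) and GFAP (the astrocyte filament) had 0 to 12 reads in a library and were too low to be tested. For scale, 3 reads are 0.293 to 0.424 CPM.

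The lamins, which line the nucleus, were well expressed. LMNB1 was called higher, from 125.8 ± 4.30 to 153.7 ± 9.32 CPM, with a log2 fold change of 0.29 ± 0.07 (SE; edgeR adjusted p = 0.00339). LMNA was at 443.8 ± 15.8 and 442.2 ± 5.91 CPM and LMNB2 at 244.1 ± 26.2 and 280.8 ± 16.1 CPM, and neither passed. Without sgcon replicate 3, LMNB2 was called higher at 0.26 log2 (edgeR adjusted p = 0.00674). With all libraries kept it was also called higher with no filter on low counts (0.0452) and with replicate number as a block (0.0267). Of the remaining family genes, IFFO1 was called higher at 0.24 ± 0.09 log2, from 44.4 ± 4.47 to 52.4 ± 3.34 CPM, and that call ended in 9 of 13 alternatives, including without sgcon replicate 1 or 2 and without sgGPR91 replicate 2 or 3 (edgeR adjusted p from 0.127 to 0.159). IFFO2, named after its values were seen, was called lower from 5.00 ± 1.48 to 2.67 ± 1.23 CPM, and that call ended in 8 of 13, including without sgcon replicate 2 or 3 and without sgGPR91 replicate 1 or 2 (edgeR adjusted p from 0.0567 to 0.189). In all, 2 of the 6 tested genes rose and 1 fell, with a median of 0.12 log2, while 41.1% of all genes tested were called. Without sgcon replicate 2 or sgGPR91 replicate 2 the 3 calls became 1.

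Genes whose products bind, modify or carry filaments were counted from a list of 38, of which 34 were tested. Of these, 7 rose, 6 fell and 21 did not pass, with a median log2 fold change of -0.05. Over all genes tested 41.1% were called. HSPB8 was the only 1 of the 34 with a larger difference than NEFL and NEFM.

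Among 4 cytolinkers tested, which tie filaments to other structures, PPL (periplakin) fell from 7.18 ± 1.45 to 2.59 ± 0.876 CPM (log2 fold change -1.46 ± 0.28, SE). DST (dystonin) fell from 473.8 ± 14.9 to 407.1 ± 28.7 CPM, a call that ended in all 3 limma runs and without sgGPR91 replicate 1 or 3. PLEC (plectin) was at 228.1 ± 73.0 and 248.8 ± 10.9 CPM and did not pass. Its level was uneven within sgcon, and without sgcon replicate 3 it was called higher at 0.39 log2 (edgeR adjusted p = 0.00259), while without sgcon replicate 1 its sign turned (-0.08). MACF1 was at 294.3 ± 30.0 and 273.3 ± 4.17 CPM and also did not pass.

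None of the 4 filament turnover genes was called by edgeR, while 41.1% of all genes tested were called. TRIM2, a ubiquitin ligase gene for the light subunit, was at 122.7 ± 1.60 and 116.0 ± 5.47 CPM. The calpain genes CAPN1 and CAPN2 encode proteases that cut neurofilaments. They were at 89.8 ± 1.42 and 83.7 ± 3.18 CPM and at 191.2 ± 8.06 and 184.2 ± 3.80 CPM. In TMM-scaled CPM, TRIM2 and CAPN1 were lower in sgGPR91 without overlap of the groups. Groups did not overlap for 50.9% of all genes tested.

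Of 14 kinase and phosphatase genes that act on filament heads or tails, 3 rose, 1 fell and 10 did not pass, while 41.1% of all genes tested were called. PPP2CA, the catalytic subunit of protein phosphatase 2A, rose from 92.5 ± 3.32 to 122.5 ± 3.75 CPM. Its neuronal regulatory subunit gene PPP2R2B rose by 1.07 ± 0.17 log2 (SE), and PRKACA, a protein kinase A subunit gene, rose from 58.2 ± 4.37 to 74.5 ± 4.61 CPM. MAPK3, which encodes ERK1, fell from 53.2 ± 5.30 to 42.9 ± 2.26 CPM. The MAPK3 call ended without sgcon replicate 1 (edgeR adjusted p = 0.061) and without sgGPR91 replicate 2 (0.0712). The phosphatase scaffold gene PPP2R1A, GSK3B, ROCK1, ROCK2 and PLK1, all above 50 CPM, did not pass, with log2 fold changes from -0.16 to 0.13. Without sgcon replicate 3, GSK3B was called higher and PPP2R1A lower (edgeR adjusted p = 0.0252 and 0.0171). Nor did CDK5, chosen by its role after its value was seen, the main neuronal kinase of neurofilament tails, at 27.0 ± 2.00 and 33.0 ± 4.83 CPM (edgeR adjusted p = 0.0557), though it passed in 4 alternatives, among them without sgcon replicate 1 (0.0427).

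Kinesin-1 motors carry neurofilaments along axons, and dynein carries them back. The neuronal kinesin heavy chain genes KIF5A and KIF5C rose, from 136.6 ± 18.9 to 181.3 ± 10.96 CPM and from 203.6 ± 9.93 to 307.4 ± 7.42 CPM. Their log2 fold changes were 0.41 ± 0.09 and 0.60 ± 0.07 (SE). The broadly expressed KIF5B was at 317.9 ± 6.33 and 354.8 ± 12.1 CPM and did not pass (edgeR adjusted p = 0.0661). DCTN1, the large subunit gene of the dynein activator dynactin, fell from 229.5 ± 4.21 to 192.4 ± 5.21 CPM, and DYNC1H1, the dynein heavy chain gene, was at 962.1 ± 128.5 and 829.6 ± 16.1 CPM without passing (0.0661). KIF5B passed in 4 alternatives, as with library totals only (edgeR adjusted p = 0.0405), and DYNC1H1 in 4, among them without sgcon replicate 1 (0.00658). KLC1, a kinesin light chain gene, was at 44.8 ± 14.5 and 52.9 ± 5.85 CPM and did not pass. It was called higher at 0.52 log2 without sgcon replicate 3 (edgeR adjusted p = 0.00082). With replicate number as a block it was called higher at 0.27 log2 (0.0394).

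Of the small heat-shock chaperones, which bind unfolded filament proteins, HSPB8 rose from 3.03 ± 1.35 to 16.7 ± 0.266 CPM (log2 fold change 2.45 ± 0.23, SE), the change nearest in size to those of NEFL and NEFM in this list. HSPB1 fell from 114.0 ± 26.1 to 84.1 ± 0.891 CPM, a call that ended in the unfiltered limma run (adjusted p = 0.067). CRYAB was too low to be tested. Among genes for RNA binding proteins, ELAVL4, a neuronal stabiliser of messenger RNA, rose from 215.1 ± 10.5 to 309.2 ± 16.6 CPM. ARHGEF28, whose product binds the NEFL messenger RNA, fell from 164.5 ± 5.52 to 134.5 ± 5.07 CPM. TARDBP was at 202.3 ± 3.16 and 225.7 ± 9.31 CPM and did not pass, though it passed in 5 alternatives, among them without sgcon replicate 3 (edgeR adjusted p = 0.0451).

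**Figure D4:**
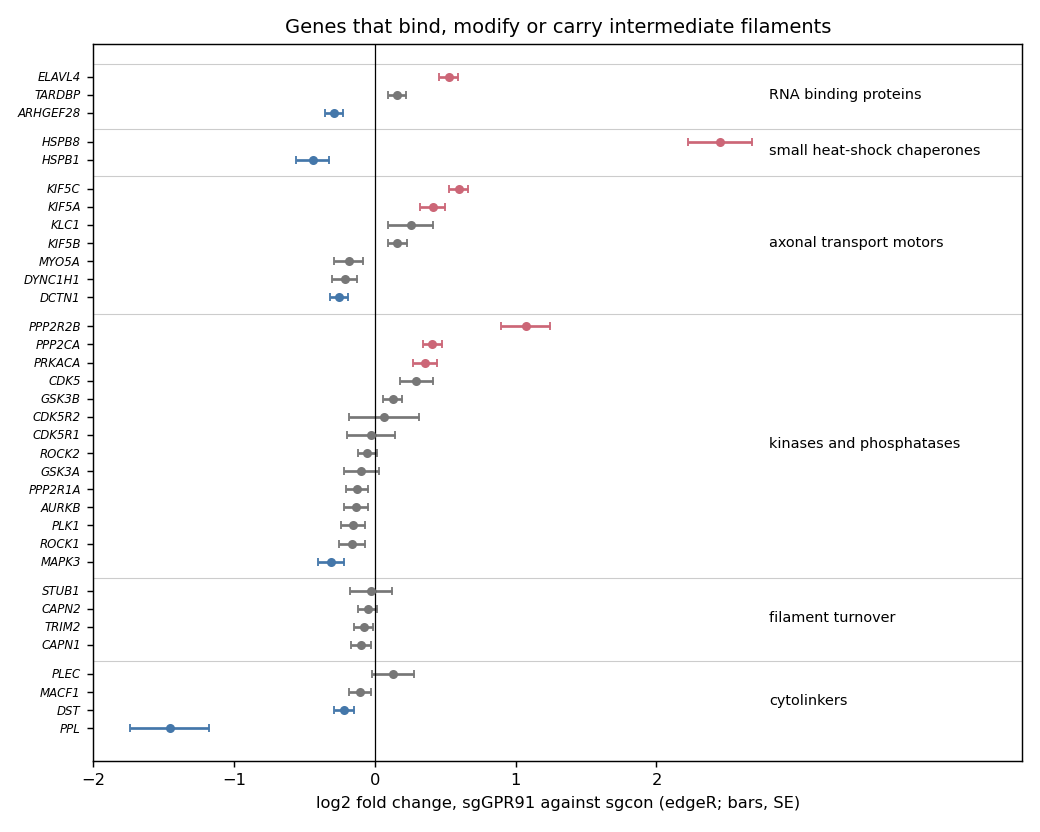
Log2 fold change of sgGPR91 against sgcon (edgeR; bars, SE) for the 34 tested genes that bind, modify or carry filaments, grouped by role, red where called higher, blue where called lower and grey where not called. HSPB8 (2.45) and PPL (-1.46) lie furthest from 0, and 21 genes did not pass.

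Markers of cell state moved beside the filament genes, and their part in the filament result was not tested. The counts for each marker list here and below stand against 20.2% called higher and 21.0% called lower over all genes tested. Of 16 adrenergic neuroblast genes, 2 rose and 10 fell, and their summed level was 4105 to 4607 CPM in sgcon and 3358 to 3470 CPM in sgGPR91. DBH, the enzyme gene for noradrenaline, fell from 159.3 ± 25.6 to 44.8 ± 5.32 CPM and INSM1 from 9.95 ± 2.13 to 2.85 ± 0.824 CPM, while DDC and CHGB rose by 0.40 and 0.37 log2. None of the 16 was at 0. Most lineage genes that passed thus went opposite to NEFL, NEFM and PRPH.

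Of 14 tested neuronal differentiation genes, 7 rose and 5 fell, with sums of 4682 to 4970 CPM in sgcon and 5329 to 5509 CPM in sgGPR91. GAP43, a growth cone gene, rose from 72.6 ± 7.95 to 141.9 ± 6.88 CPM and the microtubule gene MAP1B from 1210 ± 28.99 to 1814 ± 30.6 CPM. The microtubule gene DCX and the synaptic vesicle gene SYT1 fell, by 0.87 and 0.71 on the log2 scale. RBFOX3, the gene of the mature neuron marker NeuN, was under 1 CPM in both groups. Neuronal genes thus changed in both directions beside NEFL and NEFM.

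Of 17 tested mesenchymal and fibroblast genes, 8 rose and 4 fell, and the sums overlapped, at 1798 to 1898 CPM in sgcon and 1864 to 1898 CPM in sgGPR91. CD44 rose from 92.7 ± 6.38 to 196.6 ± 5.43 CPM and YAP1 from 1.56 ± 0.577 to 5.04 ± 0.656 CPM, while TWIST1 and COL1A1 fell, by 0.59 and 0.41 log2. ACTA2, the gene of smooth muscle actin, was below 5 CPM and is named after its values were seen, with 1, 16 and 1 reads in sgcon and 32, 24 and 25 in sgGPR91. Its log2 fold change was 2.21 ± 0.55 (SE; edgeR adjusted p = 0.00408), and 4.52 without sgcon replicate 2. Of 9 Schwann cell and neural crest genes, 3 were tested, of which NGFR rose, by 0.49 log2, with sums over the 9 of 105.1 to 108.9 CPM in sgcon and 122.8 to 133.1 CPM in sgGPR91. The Schwann lineage factor SOX10 was at 1.69 ± 0.950 and 1.60 ± 0.247 CPM, and CDH19 and FOXD3 had no read. Of 13 neural progenitor genes, the cells in which nestin is best known, 5 were tested, and the sums over the 13 were 1001 to 1069 CPM in sgcon and lower, at 754 to 793 CPM, in sgGPR91. Among them HES1 and SOX2 rose by 0.63 and 0.38 log2, and MSI2, MSI1 and SOX11 fell by 0.59, 0.52 and 0.34. SOX1, SOX3, HES5 and POU3F4 had no read. The SOX2 call ended in 4 alternatives, namely without sgcon replicate 2 or sgGPR91 replicate 2 or 3 (edgeR adjusted p from 0.0691 to 0.101) and with limma without a filter (0.0613), and the HES1 call ended without sgcon replicate 2 (0.0509) and without sgGPR91 replicate 1 (0.0589).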

How the data were processed

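Counts and FPKM values were deposited by the authors for 6 libraries. Per the file headers, the read counts are raw, and all are whole numbers. The FPKM values are scaled by the authors to the listed gene length, per the file headers, and matched count over length with a largest relative difference of 5.1e-15. HISAT2, Bowtie2 and RSEM are named in the submitters' processing notes without versions or roles; genome build and strand setting are not given in the sources used here.

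Counts were tested with edgeR 4.0.16 in R 4.3.3: filterByExpr (minimum count 10, minimum total 15), TMM scaling, quasi-likelihood test of sgGPR91 against sgcon with no covariate, Benjamini-Hochberg adjustment over 12701 genes, called under 0.05. The SE is the absolute log2 fold change over the square root of F. Of 19937 rows, 581 had no name and entered under their identifiers. Alternatives used DESeq2 1.42.0, limma 3.58.1 on log2(FPKM + 1) and log2(FPKM + 0.1), other scaling and filters, a replicate block and leaving out each library. On simulated data of 12579 genes for this comparison, 78.7% of genes changed 1.5-fold, 91.4% changed 2-fold and 100% changed 4-fold were recovered. These were 61, 70 and 67 genes, far fewer than the 5221 called in the data. No change under 1.5-fold was simulated, so recovery at the sizes seen for NEFH, INA, PRPH, VIM, NES and SYNM was not tested.

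The 8 genes and the lists were chosen with earlier results of these data known. Named were all 8 genes and list genes called with a mean of at least 5 CPM or with a mean of at least 50 CPM. So were the 2 largest calls per direction in each marker list among genes with a mean of at least 5 CPM in 1 group. The 3 nearest profiles, neighbours called past 2-fold, marker genes without reads and some genes too low to be tested were also named. Outside these rules, DOCK5, STC1, SOX11, KRT10, SOX10 and PHOX2A, like CDK5, IFFO2 and ACTA2, were named after their values were seen. Some genes are not reported here and were left out of the lists, neighbours and profiles, but not of the fit. In processing, replicates differed beyond counting noise (chi-square per degree of freedom 1.82 to 9.17).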

Additional observations from a re-analysis of the deposited data

How the results depend on the processing

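Of the 8 genes, 7 were called under the main settings and under every alternative that kept all libraries. The same held with any library removed except sgcon replicate 1, without which 8 were called. Over all genes tested, 41.1% were called in the main fit, and 4108 to 5707 genes were called when a library was left out. The calls of NEFL, NEFM, NEFH, INA, PRPH, NES and SYNM kept their direction and their side of the threshold in all 13 alternatives. NEFL ranged from 2.15 to 2.31 and NEFM from 2.04 to 2.15 log2, and the adjusted p nearest the threshold was 0.043, for SYNM. With the replicate number as a block, the same 5 higher and 2 lower counts were found, and calls over all genes went from 5221 to 5670. The deviations of same-numbered libraries correlated at 0.146, 0.0169 and 0.0837. Libraries of different numbers were not correlated for comparison, so these values cannot tell whether the numbers mark a pairing. The other filament family genes had 3 calls in the main fit settings, but 1 with library totals only, 5 with no filter on low counts, and 1 with limma on log2(FPKM + 1) and log2(FPKM + 0.1), and from 1 to 3 when a library was left out. Small values changed sign for PLEC (from -0.0773 to 0.3858 when a library was left out, called only at the upper end), for SOX10 (from -0.2787 to 0.4715, and 0.0259 with limma on log2(FPKM + 0.1)), for PHOX2A (from -0.0485 to 0.1218), for KRT10 (from -0.1392 to 0.1567) and for LMNA (from -0.0329 to 0.0145, with 0.0035 for library totals only and 0.0036 in the limma runs). The cause of these changes was not tested. Of 1144 values for 88 named genes, 1058 kept direction and call. Depth limits DES, GFAP and the keratins other than KRT10, which were too low to be tested.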
